A study of Homo sapiens with 18 samples.

Results

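IGF1R, INSR, IRS1, IRS2, IGF2R and GRB10 encode the receptors, adaptors and a receptor inhibitor of insulin and insulin-like growth factor (IGF) signalling. The 6 genes, of 58735 in the deposited gene table, were chosen by symbol, together with their 62 transcripts of 206601 in the transcript files. Their RNA was read from 18 libraries of the cell line RPMI-8402, which comes from a human acute lymphoblastic leukaemia of T cells (T-ALL). The cells carried either a knockout of PIK3R1 (KO), which encodes the p85-alpha regulatory subunit of phosphoinositide 3-kinase (PI3K), or a non-targeting control guide (NT, genotype WT in the labels). KO cells and NT cells were each treated for 24 h with CB-103, which blocks transcription by the NOTCH complex, with the gamma-secretase inhibitor LY3039278 (GSI), or with the vehicle DMSO. Each of the 6 groups held 3 libraries. Neither the doses nor whether the KO cells were a pool or 1 clone is stated in the labels. The labels do not say that replicates were separate cultures, so p-values cover only how far these libraries spread, which may be in part technical.

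IGF1R and INSR are receptor tyrosine kinases that bind IGFs and insulin. On activation they phosphorylate the docking proteins IRS1 and IRS2, which bind the p85 subunit of PI3K and so recruit its catalytic subunit to the membrane, where AKT is then activated. IGF2R has no kinase activity: it removes IGF2 from the cell surface and carries enzymes tagged with mannose 6-phosphate to lysosomes. GRB10 binds the activated receptors and dampens their signal, and it is itself stabilised by mTORC1. IGF1R has been described as a NOTCH1 target in T-ALL. The comparisons ask how these genes respond to NOTCH inhibition in cells with and without intact PIK3R1.

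Estimated gene counts totalled 30416183 to 43558387 per library. Levels are library-scaled counts (CPM) with the SD over 3 libraries, and log2 fold changes stand with their standard error (SE). Called genes had an adjusted p under 0.05 in the quasi-likelihood test of edgeR with Benjamini-Hochberg (BH) adjustment over 17346 genes. PIK3R1 itself had 23.1, 21.4 and 23.2 CPM in KO cells under DMSO, against 44.3, 45.5 and 42.5 CPM in NT cells. Under GSI it stood at 27.4, 32.2 and 23.9 CPM in KO cells, against 50.7, 57.1 and 53.05 CPM in NT cells. Under CB-103 the groups overlapped, with 25.9, 29.9 and 27.6 CPM in KO cells, against 30.9, 33.5 and 29.0 CPM in NT cells. PIK3R1 was lower in KO cells under DMSO (log2 fold change -0.97 ± 0.09 SE, edgeR BH adjusted p = 4.12e-07) and under GSI (-0.95 ± 0.09, adjusted p = 3.94e-07). It was not called under CB-103 in the gene table (-0.16 ± 0.09, adjusted p = 0.173), but was with plain sums of the transcript estimates (-0.34, adjusted p = 6.87e-05; range over all alternatives 1.51e-05 to 0.505).

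The 7 T-ALL markers listed for the line (CD7, CD3D, CD3E, LCK, TAL1, LMO1 and NOTCH1) had a summed level of 1054 to 1089 CPM in KO CB-103, 1383 to 1440 in KO GSI and 1701 to 1744 in KO DMSO libraries. In NT cells it was 947 to 1034 CPM with CB-103, 1590 to 1621 with GSI and 2083 to 2097 with DMSO. The myeloid markers MPO, CSF1R and LYZ summed to at most 1.57 CPM in any library. The liver and muscle markers ALB and MYH7 summed to 0.978 to 1.47 CPM in KO CB-103, 0.567 to 0.795 in KO GSI and 0.306 to 1.02 in KO DMSO libraries. In NT libraries that sum was 2.30 to 2.65 CPM under CB-103, 0.390 to 1.25 under GSI and 0.446 to 1.23 under DMSO. The 4 adherent-cell markers (COL1A1, EPCAM, KRT8, KRT18) summed to 2.70 to 5.09 CPM in KO CB-103, 8.72 to 12.3 in KO GSI and 8.02 to 12.5 in KO DMSO libraries. In NT libraries their sum was 3.84 to 4.81 CPM with CB-103, 18.7 to 25.9 with GSI and 15.8 to 18.8 with DMSO. Most of this sum was COL1A1, with up to 25.6 CPM in a library. KRT8 reached at most 0.599 CPM, KRT18 0.0751 and EPCAM 0.0568. Likewise ALB reached 2.65 CPM and MYH7 at most 0.0260 CPM. The part of these shifts in the results was not tested. In bulk RNA, fewer cells of a type and less RNA per cell cannot be told apart.

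IGF1R was lower with both NOTCH inhibitors in both genotypes, GRB10 was higher with CB-103 and lower with GSI, and INSR was slightly higher with CB-103. GRB10 was higher and IRS2 lower in KO than in NT cells under every treatment, and IGF2R was higher in KO cells under DMSO and CB-103. IRS1, whose replicates varied most, was called in 1 comparison.

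**Figure D1:**
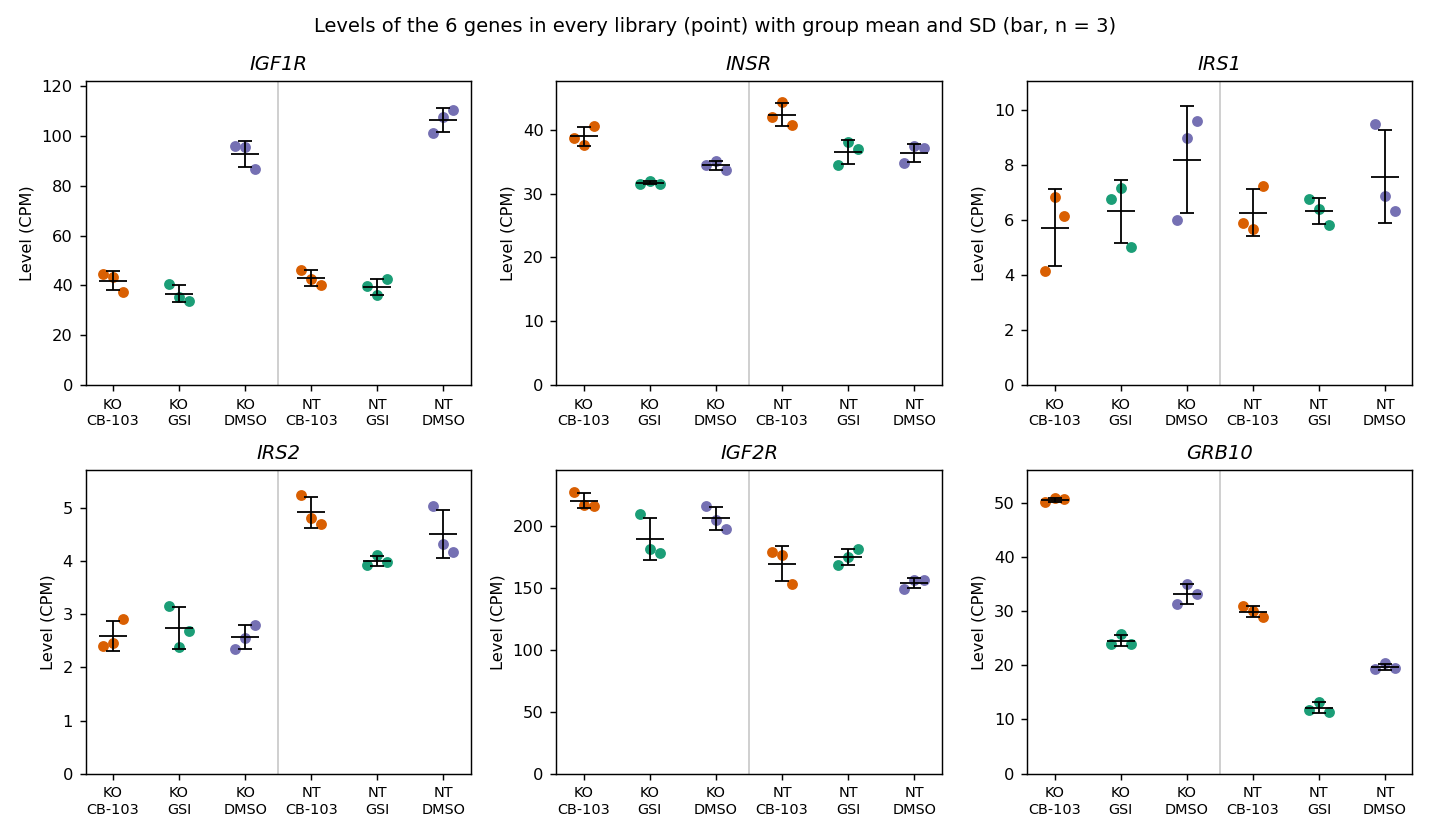
Level in CPM (y axes, linear from 0) of each gene in every library (points, orange CB-103, green GSI, purple DMSO), with group mean and SD (black bars, n = 3), KO groups left of NT groups. IGF1R stands at 33.9 to 46.4 CPM in every inhibitor library and at 86.7 to 111 CPM in every DMSO library.

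**Figure D2:**
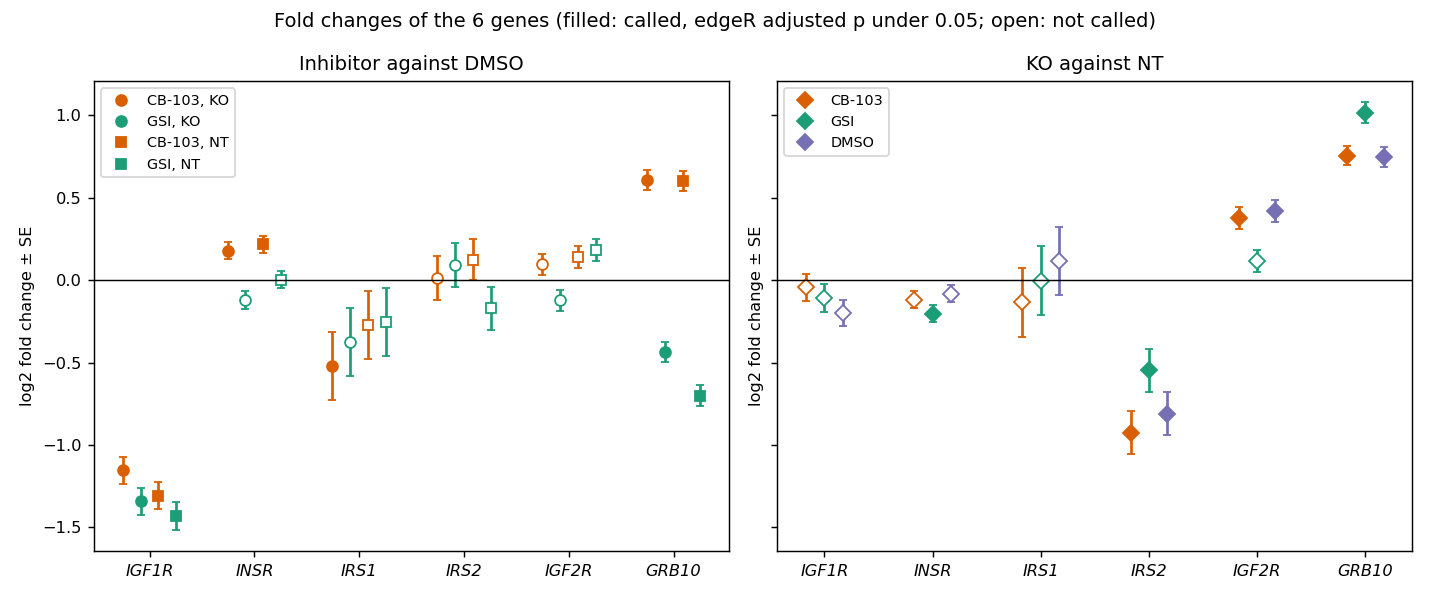
Log2 fold change with its SE (y axis) for each gene (x axis), inhibitor against DMSO on the left and KO against NT on the right, with filled symbols for called values. GRB10 lies on opposite sides of 0 with CB-103 and with GSI, and IRS2 lies below 0 in all 3 comparisons of KO with NT.

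Among the receptors, IGF1R (chr15:98648539-98964530, plus strand, hg38) gave the largest change with the inhibitors. Its level was 44.6, 43.3 and 37.4 CPM in KO CB-103 libraries and 40.5, 35.5 and 33.9 CPM in KO GSI libraries, against 96.2, 95.7 and 86.7 CPM in KO DMSO libraries. NT cells had 46.4, 42.7 and 40.1 CPM with CB-103 and 39.8, 36.1 and 42.5 CPM with GSI, against 101, 108 and 111 CPM with DMSO. Every inhibitor library was below every DMSO library of its genotype. The log2 fold change in KO cells was -1.15 ± 0.08 with CB-103 (edgeR BH adjusted p = 2.2e-09) and -1.34 ± 0.08 with GSI (adjusted p = 3.83e-09). In NT cells it was -1.31 ± 0.08 with CB-103 (edgeR BH adjusted p = 2.05e-10) and -1.43 ± 0.08 with GSI (adjusted p = 8.44e-10). KO and NT cells did not differ in IGF1R at the threshold: the difference was -0.20 ± 0.08 under DMSO (edgeR BH adjusted p = 0.089), -0.04 ± 0.08 under CB-103 and -0.11 ± 0.08 under GSI. Nor did the responses differ between genotypes at the threshold, at 0.15 ± 0.11 for CB-103 and 0.09 ± 0.12 for GSI (KO minus NT, edgeR BH adjusted p = 0.417 and 0.714).

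The size of the IGF1R change depended on how transcripts were summed. With plain sums of the transcript estimates the log2 fold change in KO cells was -0.71 with CB-103 and -0.60 with GSI, and in NT cells -0.82 and -0.62, still called in each comparison (edgeR BH adjusted p from 9.15e-11 to 1.43e-07; over all alternatives of these 4 results, the highest adjusted p was 1.55e-05). The gene table matched TPM scaled by transcript length to within 1.85% for IGF1R in all 18 libraries, a scale on which a short transcript weighs far more than its reads. Such a transcript is IGF1R-205, a noncoding model of 548 bases. Its first exon (chr15:98952795-98953110, 316 bases) lies in the intron between exons 20 and 21 of the coding transcript IGF1R-201, and its second exon (chr15:98957061-98957292, 232 bases) is the start of exon 21. The junctions that tell these transcripts apart are shown here, exon 21 in capitals and the 60 bases spliced to it in lower case: chr15:98953051-98953110 in IGF1R-205 and chr15:98948649-98948708, the end of exon 20, in IGF1R-201. Both were read from GENCODE release 29 transcripts (hg38, plus strand).
IGF1R-205: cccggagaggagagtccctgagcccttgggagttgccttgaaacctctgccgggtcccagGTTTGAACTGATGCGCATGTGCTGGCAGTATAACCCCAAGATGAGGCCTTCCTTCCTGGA
IGF1R-201: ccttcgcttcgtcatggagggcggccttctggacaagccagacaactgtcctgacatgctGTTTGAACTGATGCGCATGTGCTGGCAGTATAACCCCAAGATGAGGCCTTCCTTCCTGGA

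IGF1R-205 was lower by a larger factor than the coding transcripts in every inhibitor group. Its level was 1.91, 2.27 and 1.24 TPM in KO CB-103 libraries and 0.888, 0.588 and 0.467 TPM in KO GSI libraries, against 7.29, 7.75 and 6.45 TPM in KO DMSO libraries. NT libraries had 2.43, 1.77 and 1.82 TPM with CB-103 and 0.876, 0.235 and 0.864 TPM with GSI, against 7.67, 8.63 and 8.52 TPM with DMSO. Inhibitor and DMSO libraries did not overlap, and every GSI library was below every CB-103 library. The means were 3.97-fold lower with CB-103 and 11.1-fold lower with GSI in KO cells, and 4.12-fold and 12.6-fold lower in NT cells. The coding transcripts together averaged 4.75 ± 0.24 TPM with CB-103 and 4.89 ± 0.44 TPM with GSI, against 7.68 ± 0.22 TPM with DMSO in KO cells (SD, n = 3). In NT cells they averaged 4.66 ± 0.41 TPM with CB-103 and 5.44 ± 0.16 TPM with GSI, against 7.67 ± 0.27 TPM with DMSO, which is 1.65-fold and 1.41-fold lower. These transcript values are given without a test, since they were singled out after being seen and salmon's own uncertainty was not used here. IGF1R-205 held 96.3 ± 14.3 estimated reads in NT DMSO libraries, 3.51% of the reads of the gene but 51.5% of its TPM. In NT GSI libraries it held 7.60 ± 4.83 reads, 0.411% of the reads and 10.3% of the TPM. The gene table stood at 0.824 ± 0.056 times the sum of transcript reads in NT GSI libraries and at 1.44 ± 0.02 times that sum in NT DMSO libraries.

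**Figure D3:**
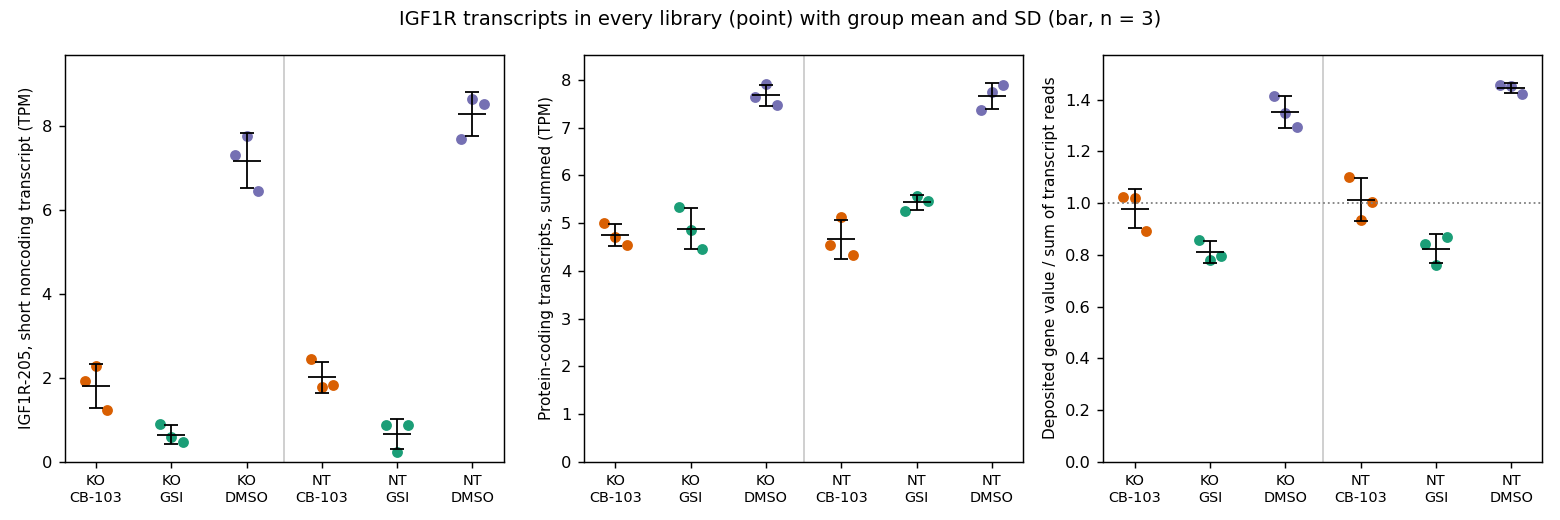
IGF1R-205 (left, TPM), all coding IGF1R transcripts together (centre, TPM) and the ratio of the deposited gene value to the sum of transcript reads (right; dotted line at 1) in every library (points), with group mean and SD (bars, n = 3). IGF1R-205 averages 0.648 to 2.01 TPM in the inhibitor groups and 7.16 to 8.27 TPM in the DMSO groups, while the coding transcripts average 4.66 to 5.44 and 7.67 to 7.68 TPM.

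The order of CB-103 and GSI also turned with the sum used. In the gene table IGF1R did not differ between the inhibitors at the threshold (CB-103 against GSI, 0.19 ± 0.08 in KO cells, edgeR BH adjusted p = 0.0742, and 0.12 ± 0.08 in NT cells, adjusted p = 0.224). With transcript sums IGF1R was lower with CB-103 than with GSI in NT cells (-0.21, edgeR BH adjusted p = 0.00287; range over all alternatives 0.00287 to 0.581). The coding transcripts IGF1R-201, IGF1R-206 and IGF1R-219 differ mainly in where their first exon starts, and salmon moved reads between them from library to library: IGF1R-201 was at 0, 0.281 and 0 TPM in NT DMSO libraries and at 3.24, 1.43 and 0 TPM in KO DMSO libraries. Their single levels are therefore not compared.

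INSR (chr19:7112255-7294034, minus strand, hg38) was modestly higher with CB-103. It stood at 38.7, 37.7 and 40.6 CPM in KO CB-103 libraries, against 34.5, 35.1 and 33.6 CPM in KO DMSO libraries. In NT cells it stood at 42.0, 44.3 and 40.8 CPM with CB-103, against 34.8, 37.4 and 37.1 CPM with DMSO. The groups did not overlap in either genotype, and INSR rose by 0.18 ± 0.05 in KO cells (edgeR BH adjusted p = 0.00786) and by 0.22 ± 0.05 in NT cells (adjusted p = 0.00138). With GSI the level was 31.5, 32.0 and 31.5 CPM in KO cells and 34.4, 38.1 and 37.0 CPM in NT cells, and neither was called against DMSO (-0.12 ± 0.05, 95% interval -0.23 to -0.01, in KO cells; 0.00 ± 0.05, interval -0.11 to 0.11, in NT cells). INSR was higher with CB-103 than with GSI by 0.30 ± 0.05 in KO cells (edgeR BH adjusted p = 1.11e-04) and by 0.21 ± 0.05 in NT cells (adjusted p = 0.00162). Under GSI it was lower in KO than in NT cells by 1.15-fold (-0.20 ± 0.05, edgeR BH adjusted p = 0.00583), while under CB-103 (-0.12 ± 0.05) and DMSO (-0.08 ± 0.05) it was not called. Plain transcript sums called it lower in KO cells there too, under CB-103 (-0.14, edgeR BH adjusted p = 0.0451) and DMSO (-0.15, adjusted p = 0.0411), with ranges over all alternatives of 0.0116 to 0.451 and 0.0411 to 0.689.

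The insulin receptor is made in an A form without exon 11, which also binds IGF2, and a B form with it. Exon 11 has 36 bases (chr19:7150497-7150532, hg38), shown in capitals between the last 30 bases of exon 10 and the first 30 of exon 12 in INSR-201, the B form; INSR-202, the A form, joins exons 10 and 12 directly. Both are given 5′ to 3′ on the minus strand, from GENCODE release 29.
INSR-201: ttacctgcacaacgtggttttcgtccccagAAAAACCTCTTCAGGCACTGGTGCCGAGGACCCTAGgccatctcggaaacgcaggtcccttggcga
INSR-202: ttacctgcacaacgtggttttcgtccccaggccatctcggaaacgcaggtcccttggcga

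Nearly all INSR transcripts lacked these bases. INSR-202 averaged 5.39 ± 0.12 TPM in KO CB-103, 4.32 ± 0.13 in KO GSI and 4.69 ± 0.14 in KO DMSO libraries. In NT libraries it averaged 5.88 ± 0.23 TPM with CB-103, 5.19 ± 0.37 with GSI and 4.90 ± 0.39 with DMSO. The share of exon 11 in the TPM of the full-length pair ranged from 0% to 3.83% and was 0 in 11 of 18 libraries, where 3 reads of INSR-201 would make 0.298% to 0.511% of that TPM. Of 12 comparisons of this share, none passed an exact two-sided permutation test with BH adjustment (lowest adjusted p = 0.8). Without ties, the smallest exact p is 0.1 for 3 against 3 libraries and 0.005 or less for the 3 comparisons pooled over strata. The shares tied at 0 raise these limits. The comparisons of 3 against 3 libraries could therefore not pass, and the tests do not decide whether the share differs. INSR-201 is also annotated with a shorter end (4721 bases, against 8954 for INSR-202), so salmon's split uses more than exon 11.

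IGF2R (chr6:159969099-160113507, plus strand, hg38) was higher in KO cells under DMSO and CB-103. Under DMSO it stood at 217, 205 and 198 CPM in KO libraries, against 149.7, 156 and 156 CPM in NT libraries. CB-103 libraries had 228, 218 and 217 CPM in KO cells, against 179, 177 and 153 CPM in NT cells. The groups did not overlap, and IGF2R rose in KO cells by 0.42 ± 0.07 under DMSO (edgeR BH adjusted p = 1.30e-04) and by 0.38 ± 0.07 under CB-103 (adjusted p = 2.06e-04). Under GSI the groups overlapped, with 209.6, 182 and 178 CPM in KO libraries, against 168, 175 and 182 CPM in NT libraries (0.12 ± 0.07, edgeR BH adjusted p = 0.189). No inhibitor was called against DMSO. The closest was GSI in NT cells, at 0.18 ± 0.07 (edgeR BH adjusted p = 0.0512, called in 7 of 15 alternatives, whose adjusted p ran from 0.0175 to 0.153). The same-numbered libraries of these groups deviated together, and with the replicate number as a block it was called (0.18, edgeR BH adjusted p = 0.0281). In KO cells IGF2R was higher with CB-103 than with GSI (0.22 ± 0.07, edgeR BH adjusted p = 0.0106), a call lost without KO GSI replicate 2 (0.19, adjusted p = 0.0519) or 3 (0.17, adjusted p = 0.0598). Most of the gene's TPM came from IGF2R-205, at 26.4 ± 1.3 TPM in KO DMSO and 18.8 ± 0.3 TPM in NT DMSO libraries.

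Of the adaptors, IRS2 (chr13:109752698-109786568, minus strand, hg38) followed the genotype. It stood at 2.40, 2.46 and 2.90 CPM in KO CB-103, 3.16, 2.38 and 2.68 in KO GSI and 2.35, 2.55 and 2.81 in KO DMSO libraries. NT libraries had 5.25, 4.81 and 4.69 CPM under CB-103, 3.93, 4.11 and 3.98 under GSI, and 5.03, 4.32 and 4.18 under DMSO. All 9 KO libraries were below all 9 NT libraries. IRS2 fell in KO cells by 0.92 ± 0.13 under CB-103 (edgeR BH adjusted p = 2.69e-05), by 0.55 ± 0.13 under GSI (adjusted p = 0.00386) and by 0.81 ± 0.13 under DMSO (adjusted p = 1.81e-04). Neither inhibitor was called against DMSO, with 0.01 ± 0.13 for CB-103 and 0.09 ± 0.13 for GSI in KO cells, and 0.13 ± 0.13 and -0.17 ± 0.13 in NT cells. The single IRS2 transcript held 83.7 ± 6.2 estimated reads in KO GSI and 161 ± 16 in NT DMSO libraries.

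IRS1 (chr2:226731317-226799759, minus strand, hg38) gave the least certain values. Its level was 4.14, 6.84 and 6.15 CPM in KO CB-103 and 6.77, 7.15 and 5.01 in KO GSI libraries, against 5.99, 8.99 and 9.59 CPM in KO DMSO libraries. In NT libraries it was 5.90, 5.67 and 7.23 CPM with CB-103 and 6.76, 6.41 and 5.82 with GSI, against 9.49, 6.88 and 6.31 with DMSO. Groups overlapped in every comparison. IRS1 was called only with CB-103 in KO cells (-0.52 ± 0.21, edgeR BH adjusted p = 0.0472), and leaving out KO DMSO replicate 2 (-0.46, adjusted p = 0.125) or 3 (-0.39, 0.182), or KO CB-103 replicate 1 (-0.34, 0.214) or 3 (-0.58, 0.0638), ended the call, as did a fit to the compared groups only (-0.49). A second short transcript, IRS1-202, received 0 to 5.33 estimated reads per library yet 0% to 40.3% of the gene's TPM, and the gene table ran from 0.761 to 1.37 times the transcript sum. The coding transcript IRS1-201 alone gave 5.77 ± 0.85 CPM with CB-103 and 5.98 ± 1.07 with GSI, against 8.51 ± 0.93 with DMSO in KO cells. In NT cells it gave 7.07 ± 0.69 CPM with CB-103 and 6.38 ± 0.91 with GSI, against 7.93 ± 0.89 with DMSO. With plain transcript sums IRS1 was lower with CB-103 in KO cells (-0.56, edgeR BH adjusted p = 0.00122) and with GSI in KO cells (-0.48, 0.0103) and NT cells (-0.38, 0.0307), and not called with CB-103 in NT cells (-0.25, 0.0953). Over all alternatives, the adjusted p of GSI against DMSO ran from 0.0103 to 0.551 in KO cells and from 0.0307 to 0.896 in NT cells.

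GRB10 (chr7:50590063-50793462, minus strand, hg38), the receptor inhibitor, responded in opposite directions to the inhibitors and was higher in KO cells throughout. In KO cells it stood at 50.1, 50.8 and 50.6 CPM with CB-103 and 24.0, 25.7 and 23.9 CPM with GSI, against 31.2, 35.02 and 33.1 CPM with DMSO. In NT cells it stood at 30.9, 29.9 and 28.8 CPM with CB-103 and 11.8, 13.3 and 11.4 CPM with GSI, against 19.3, 20.4 and 19.5 CPM with DMSO. The 3 treatments did not overlap within a genotype, nor the genotypes within a treatment. GRB10 rose with CB-103 by 0.61 ± 0.06 in KO cells (edgeR BH adjusted p = 1.22e-07) and by 0.60 ± 0.06 in NT cells (adjusted p = 1.35e-07). With GSI it fell by 0.43 ± 0.06 in KO cells (edgeR BH adjusted p = 6.24e-05) and by 0.70 ± 0.06 in NT cells (adjusted p = 3.01e-07). The direct difference, CB-103 against GSI, was 1.04 ± 0.06 in KO cells and 1.30 ± 0.06 in NT cells. Against NT cells, KO cells had 1.69-fold more GRB10 under CB-103 (0.76 ± 0.06, edgeR BH adjusted p = 3.81e-08), 2.02-fold more under GSI (1.01 ± 0.06, adjusted p = 4.34e-09) and 1.68-fold more under DMSO (0.75 ± 0.06, adjusted p = 1.13e-07). The most abundant transcript, GRB10-204, averaged 10.5 ± 0.6 TPM with CB-103 and 5.17 ± 0.31 TPM with GSI, against 6.37 ± 1.10 TPM with DMSO in KO cells. In NT cells it averaged 6.05 ± 0.35 TPM with CB-103 and 2.55 ± 0.14 TPM with GSI, against 3.65 ± 0.69 TPM with DMSO.

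Per length, the order of the 6 genes was stable in part. IGF2R was at 20.1 to 32.5 TPM in every library, above all others. GRB10 ranged from 3.88 to 17.4 TPM and INSR from 4.35 to 6.63 TPM, while IRS1 (0.819 to 1.94 TPM) and IRS2 (0.643 to 1.38 TPM) were the lowest. IGF1R as a gene was at 15.0 ± 0.8 TPM in KO DMSO and 16.1 ± 0.8 TPM in NT DMSO libraries, far above INSR (5.16 ± 0.15 and 5.09 ± 0.24 TPM), but its coding transcripts alone gave 7.68 ± 0.22 and 7.67 ± 0.27 TPM. In NT GSI libraries coding IGF1R (5.44 ± 0.16 TPM) and INSR as a whole gene (5.42 ± 0.47 TPM) stood at the same level within their SD. The main coding transcript of INSR, INSR-202, was at 5.19 ± 0.37 TPM there. Within a gene, the order over the 6 groups was clearest for GRB10, from KO CB-103 down through KO DMSO, NT CB-103, KO GSI and NT DMSO to NT GSI; neighbours that differ in both genotype and treatment were not tested. IGF1R was highest in NT DMSO, then KO DMSO, and these did not differ at the threshold.

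The members' calls are set here beside those over all genes. With CB-103 against DMSO, 2 of 6 rose (INSR, GRB10) and 2 fell (IGF1R, IRS1) in KO cells, where 24.9% of all genes rose and 23.7% fell. In NT cells 2 rose (INSR, GRB10) and 1 fell (IGF1R), where 29.5% of all genes rose and 28.7% fell, so the counts were near the background. With GSI, 2 of 6 fell (IGF1R, GRB10) in KO cells, where 9.69% of all genes rose and 9.58% fell, and the same 2 fell in NT cells, where 9.67% rose and 15% fell. None rose with GSI by edgeR, with 0 in KO cells and 1 in NT cells (IGF2R) at an unadjusted p under 0.05; DESeq2 and limma-voom each called IGF2R in NT cells and none in KO cells. For KO against NT, 2 rose and 1 fell under DMSO (9.78% and 11.7% of all genes), 2 rose and 1 fell under CB-103 (20.4% and 16.5%), and 1 rose and 2 fell under GSI (18.8% and 15%). For CB-103 against GSI, 3 were higher in KO cells (24.7% of all genes higher, 23.1% lower) and 2 in NT cells (29.2% higher, 27.1% lower). In the gene table none was lower by edgeR, DESeq2 or limma-voom, nor at an unadjusted p under 0.05, while transcript sums called IGF1R lower in NT cells, as given above. The median log2 fold change of the 6 was -0.25 with GSI in KO cells and -0.21 in NT cells, beside -0.0045 and 0.01 over all genes. These comparisons share control libraries and are not independent.

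Whether KO cells responded differently from NT cells was asked by interaction contrasts. No member was called by edgeR, DESeq2 or limma-voom for CB-103, where 10.3% of all genes were called higher and 4.34% lower, and 0 of 6 had an unadjusted p under 0.05. For GSI no member was called by any of the 3 tools either (2.1% of all genes higher, 0.692% lower), but 2 had an unadjusted p under 0.05. The GSI shares rest on 484 called genes, a count that ran from 36 to 856 when 1 library was left out and was 1291 with a replicate block, under which IGF2R (-0.31, edgeR BH adjusted p = 0.0375) and GRB10 (0.27, adjusted p = 0.05) were called. The response of GRB10 was 0.27 ± 0.09 less negative in KO cells (edgeR BH adjusted p = 0.103), and that of IGF2R was lower by 0.31 ± 0.09 (-0.31, adjusted p = 0.0821). GRB10 passed with plain transcript sums (0.33, edgeR BH adjusted p = 0.0244), and over all its alternatives the adjusted p ran from 0.0183 to 0.311; for IGF2R it ran from 0.0343 to 0.2.

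Promoter windows of 250 bases before the start were read from RefSeq (GRCh38.p14), in which all 6 genes matched, GRB10 with 5 windows, of which the one at the start of GRB10-204 was used. They were searched on both strands for TGGGAA, the core that the NOTCH partner RBPJ binds, for GTAAACA, bound by the PI3K-controlled FOXO factors, and for the palindrome CACGTG, bound by MYC and by TFEB. TGGGAA stood in 20.8%, GTAAACA in 2.98% and CACGTG in 6.34% of 35116 such windows. The start used for INSR lay 483 bases from that of INSR-202, so the 250 bases before INSR-202 were not searched. For IRS1 the start lay 61 bases from that of IRS1-201. None of the 6 windows held TGGGAA or GTAAACA. Only that of IGF2R held CACGTG, with 3 copies, and 0.0797% of all windows held 3 or more. A match is a description and not a binding site, and no match says only that these letters are not in this window. The windows of IGF1R and GRB10, the genes that moved with both inhibitors, and of IGF2R are shown 5′ to 3′ on the gene's strand, with CACGTG in capitals: IGF1R at chr15:98648289-98648538 (plus), GRB10 at chr7:50732354-50732603 (minus) and IGF2R at chr6:159968832-159969081 (plus).
IGF1R: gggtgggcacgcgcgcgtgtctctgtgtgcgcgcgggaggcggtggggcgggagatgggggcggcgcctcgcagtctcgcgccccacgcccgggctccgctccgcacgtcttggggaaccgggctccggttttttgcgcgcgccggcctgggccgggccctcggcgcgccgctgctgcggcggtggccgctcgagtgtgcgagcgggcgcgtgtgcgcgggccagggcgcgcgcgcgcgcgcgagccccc
GRB10: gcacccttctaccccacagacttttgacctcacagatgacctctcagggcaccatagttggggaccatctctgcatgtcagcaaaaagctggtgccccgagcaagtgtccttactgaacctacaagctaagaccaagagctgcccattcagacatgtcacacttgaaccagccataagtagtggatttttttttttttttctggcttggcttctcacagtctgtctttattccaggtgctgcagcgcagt
IGF2R: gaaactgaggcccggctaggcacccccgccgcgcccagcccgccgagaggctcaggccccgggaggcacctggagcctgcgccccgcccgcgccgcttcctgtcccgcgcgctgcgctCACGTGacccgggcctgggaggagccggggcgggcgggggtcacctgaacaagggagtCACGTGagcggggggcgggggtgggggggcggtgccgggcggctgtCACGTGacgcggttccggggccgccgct

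The genes around these members were described by 4 lists, with values given for some of the genes that a fixed rule picked out. Of 16 genes listed as ligands, binding proteins and ligand handling, 8 passed the count filter. The list also holds IGF2BP1, IGF2BP2 and IGF2BP3, which bind RNA and not the ligands. IGF2BP1 and IGF2BP3 were among the 8, and IGF2BP1 was called higher with CB-103 in NT cells (0.91 ± 0.34). IGF2, INS, IGFBP1 and IGFBP3 were at 0 in every library, and IGF1 averaged at most 0.203 CPM in any group. With CB-103, 3 of the 8 rose and 2 fell in each genotype, where 24.9% of all genes rose and 23.7% fell in KO cells and 29.5% and 28.7% in NT cells (median log2 fold change 0.52 in KO and -0.12 in NT cells). IDE, the protease that degrades insulin, rose to 102 ± 7.33 CPM in KO CB-103, against 58.6 ± 2.45 in KO DMSO libraries (0.80 ± 0.07, edgeR BH adjusted p = 1.44e-08), and to 119 CPM in NT CB-103, against 49.9 CPM in NT DMSO libraries (1.26 ± 0.07). With GSI it fell slightly, by 0.19 ± 0.07 in KO and by 0.21 ± 0.07 in NT cells. IGFBP2, a secreted IGF carrier, fell with GSI to 80.2 CPM in KO cells, against 134 CPM with DMSO (-0.74 ± 0.05), and to 77.1 CPM in NT cells, against 136 CPM with DMSO (-0.82 ± 0.05). It also fell with CB-103, to 109.9 CPM in KO (-0.28 ± 0.05) and to 83.2 CPM in NT cells (-0.71 ± 0.05). IGFBP6, which prefers IGF2, was higher in KO cells under every treatment, with 6.75 CPM in KO against 2.66 CPM in NT cells under DMSO (1.34 ± 0.16, edgeR BH adjusted p = 8.52e-06).

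Of 18 further adaptors 16 were tested, and their median lay near 0 in all 11 contrasts (-0.14 to 0.07). With CB-103, 6 rose and 6 fell in KO cells (24.9% and 23.7% of all genes), and 5 rose and 6 fell in NT cells (29.5% and 28.7%). With GSI, 3 rose and 1 fell in KO cells (9.69% and 9.58% of all genes), and 2 rose and 5 fell in NT cells (9.67% and 15%). DOK1, a docking protein that restrains RAS, rose with CB-103 to 42.6 CPM in KO cells, against 15.7 CPM with DMSO (1.44 ± 0.11), and to 47.9 CPM in NT cells, against 16.4 CPM with DMSO (1.55 ± 0.11). GAB2, which like the IRS proteins docks the p85 subunit, was lower in KO cells under CB-103 (-0.92 ± 0.08), GSI (-0.83 ± 0.08) and DMSO (-0.77 ± 0.08), with 30.0 CPM in KO against 51.2 CPM in NT cells under DMSO (edgeR BH adjusted p = 2.19e-06). Under DMSO 4 of the 16 fell in KO cells (11.7% of all genes) and 1 rose (9.78%), DOK2, a relative of DOK1 (1.98 ± 0.33, at 2.37 CPM in KO against 0.588 CPM in NT cells).

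Of 20 further receptor inhibitors 17 were tested. With CB-103, 5 rose and 7 fell in KO cells (24.9% and 23.7% of all genes), and 7 rose and 6 fell in NT cells (29.5% and 28.7%). With GSI, 0 rose and 3 fell in KO cells (9.69% and 9.58% of all genes), and 1 rose and 5 fell in NT cells (9.67% and 15%). TRIB3, a pseudokinase that binds AKT and a stress-response gene, had the largest change: 379 CPM with CB-103, against 45.4 CPM with DMSO in KO cells (3.06 ± 0.09), and 439.9 CPM with CB-103, against 45.4 CPM with DMSO in NT cells (3.28 ± 0.09, edgeR BH adjusted p = 2.91e-15). With GSI TRIB3 fell to 30.1 CPM in KO cells (-0.59 ± 0.09) and to 24.5 CPM in NT cells (-0.89 ± 0.09), so like GRB10 it was called in opposite directions with the inhibitors. SOCS3, a cytokine-induced inhibitor of the insulin receptor, fell with CB-103 (-1.23 ± 0.10 in KO and -1.68 ± 0.10 in NT cells). PTPN2, a phosphatase of receptor and JAK tyrosines, was lower in KO cells under CB-103 (-0.39 ± 0.05), GSI (-0.67 ± 0.05) and DMSO (-0.57 ± 0.05, edgeR BH adjusted p = 1.98e-07). GIGYF1, named for its binding to GRB10, was lower in KO cells under CB-103 (-0.45 ± 0.10) and GSI (-0.72 ± 0.10) and was not called under DMSO. Other genes were higher in KO cells: CBLB under GSI (0.61 ± 0.12) and DMSO (0.43 ± 0.12), and SOCS3 under CB-103 (0.58 ± 0.10). For KO against NT, 1 of 17 rose and 5 fell under CB-103 (20.4% and 16.5% of all genes). Under GSI 2 rose and 5 fell (18.8% and 15%), and under DMSO 1 rose and 3 fell (9.78% and 11.7%).

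All 8 genes of mannose 6-phosphate sorting, the trafficking route of IGF2R, were tested. With CB-103, 0 rose and 2 fell in KO cells (24.9% and 23.7% of all genes), and 1 rose and 3 fell in NT cells (29.5% and 28.7%). SORT1, a sorting receptor for lysosomal cargo, fell to 55.6 CPM in KO cells, against 87.9 CPM with DMSO (-0.66 ± 0.05), and to 59.7 CPM in NT cells, against 86.7 CPM with DMSO (-0.54 ± 0.05). For KO against NT under GSI 2 rose and 1 fell (18.8% and 15% of all genes). M6PR, the small mannose 6-phosphate receptor, rose in KO cells under CB-103 (0.41 ± 0.08) and GSI (0.37 ± 0.08) but was not called under DMSO (0.10 ± 0.08), where 1 of the 8 was called, GGA2, a coat adaptor of the sorting receptors (0.54 ± 0.13, edgeR BH adjusted p = 0.00689).

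**Figure D4:**
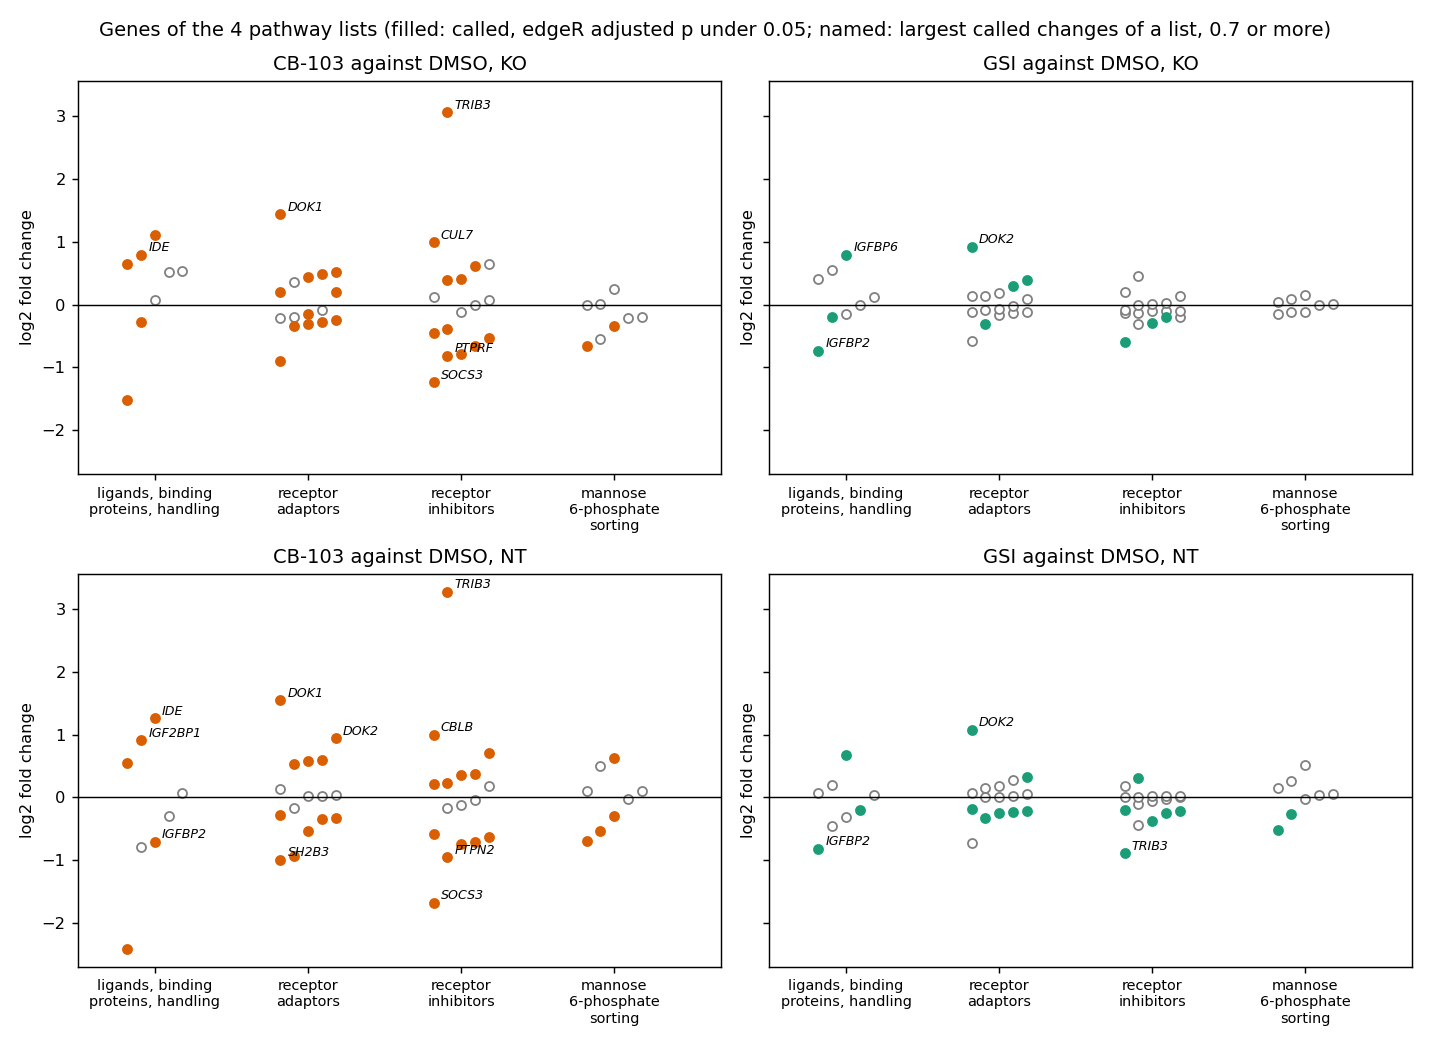
Log2 fold change (y axis) of each tested gene (points) of the 4 lists (x axis) for CB-103 (left) and GSI (right) against DMSO in KO (top) and NT cells (bottom), with filled points for called genes. TRIB3 stands at 3.06 and 3.28 with CB-103 and at -0.59 and -0.89 with GSI.

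Over the 18 libraries, the genes whose log2 CPM was most like that of a member are named as a description among 10405 genes (10406 for IRS2) with a mean of at least 5 CPM, without a test, since the libraries share their treatments. For IGF1R they were USP7, CAT and PPAN (Pearson r 0.987, 0.986 and 0.985), for GRB10 TMEM65, SUGT1 and GTF2F2 (0.974, 0.967 and 0.966), and for IRS2 MYO6, ZNF711 and RGMB (0.950, 0.950 and 0.948). For INSR they were PPM1K, ZEB1 and KDM4B (0.943, 0.943 and 0.941), for IGF2R RIMS3, CYP2S1 and BROX (0.915, 0.873 and 0.870), and for IRS1 ZNF232, ZNF674-AS1 and DIMT1 (0.709, 0.699 and 0.676).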

How the data were processed

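Messenger RNA was prepared from polyA-selected, stranded libraries and read as paired ends of 75 bases, per the labels' protocols. The authors deposited expected (estimated) counts per gene, rounded to whole numbers, for 18 libraries, and estimated counts, effective lengths and TPM per transcript for each library, per the file headers. A second table deposited by the authors holds variance-stabilised values on a log2 scale, which were used only as a check: their group differences lay within 0.1175 of the log2 fold changes reported here. HISAT2 2.2.1, Salmon 1.4.0, the build hg38, FastQC 0.11.9 and bcl2fastq 2.20 appear in the submitters' processing notes with no order or role, and how transcripts were joined into genes is not given in the sources used here. All 206601 transcripts matched GENCODE release 29, and 58207 of 58735 gene identifiers had a symbol. Antisense and intronic genes overlapping the members had at most 3 counts, except AL353625.1, a pseudogene in IGF2R on its strand, with 47 to 102 counts in a library.

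Groups were taken from the labels. The gene counts were filtered with filterByExpr (17346 genes), scaled by TMM (factors 0.954 to 1.03) and fitted in edgeR 4.0.16 (R 4.3.3) with glmQLFit and glmQLFTest to all 18 libraries with 1 mean per group and 12 residual degrees of freedom. It gave 9 pairwise comparisons and 2 interaction contrasts, with Benjamini-Hochberg adjustment over all genes tested and a threshold of 0.05. The test was first run on simulated data with known changes in a small share of the genes, all well covered by reads. That setting does not cover genes with few reads or contrasts in which many genes changed. Library totals of 30416183 to 43558387 counts set the counting error, which weighs most on genes with few reads. Alternatives were DESeq2 size factors, the DESeq2 1.42.0 Wald test, limma-voom (limma 3.58.1), no count filter, the groups compared only, a replicate block, transcript sums, replicates 2 and 3 only, and leaving out each library. Replicate numbers were taken to pair 2 groups where all same-numbered libraries deviated together with r over 0.1. This held for 2 of 9 comparisons, CB-103 (lowest r 0.124) and GSI (0.128) against DMSO in NT cells. Replicate 1 libraries deviated together in every pair of groups (r 0.257 to 0.352), and the rule failed elsewhere through replicates 2 or 3. The main fit held no replicate block. Sums over protein-coding transcripts were added after seeing the data. Named were the 6 members, PIK3R1, of each pathway list up to 4 called genes per comparison with the largest change and a mean of at least 1 CPM, and the 3 genes most like each member (log2 CPM with a prior count of 2, mean of at least 5 CPM). Not every list gene that met this rule is printed. IGF1, IGF2, INS, IGFBP1 and IGFBP3 were named for their low level, and IGF2BP1, IGF2BP2 and IGF2BP3 because they bind RNA. Transcripts and motifs were singled out after their values were seen. The members and lists were chosen with earlier results of these data known. The sums of 2 other marker lists are not reported here.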

Additional observations from a re-analysis of the deposited data

Results flagged for a closer look

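No response of the 6 genes to an inhibitor differed between KO and NT cells at the threshold. A test of the difference itself (KO response minus NT response, edgeR with Benjamini-Hochberg adjustment, n = 3 libraries per group) passed for PIK3R1, for 7 of 49 genes of the 4 lists with CB-103 (14.3%, beside 14.6% of all genes) and for 1 of 49 with GSI (2.04%, beside 2.79%), so the counts were near the background. PIK3R1, the targeted gene, was higher with CB-103 in KO cells (0.31 ± 0.09) and lower with it in NT cells (-0.50 ± 0.09), a difference of 0.81 ± 0.13 (edgeR adjusted p = 3.41e-04). The fall with CB-103 was smaller in KO cells for the adaptors SH2B3 by 0.66 and CRK by 0.39 and the phosphatase PTPN11 by 0.24 (edgeR adjusted p = 0.0407 for PTPN11). It was also smaller for the IGF carrier IGFBP2 by 0.43, the receptor inhibitor SOCS3 by 0.44 (edgeR adjusted p = 0.0407) and GNPTAB, which helps make the mannose 6-phosphate tag, by 0.35. Each of these genes had a lower mean with CB-103 than with DMSO in both genotypes. SH2B3 averaged 42.6 against 53.7 CPM in KO and 31.3 against 62.5 CPM in NT cells. For IDE, the insulin-degrading protease, which rose with CB-103 in both genotypes, the CB-103 response differed by -0.46. The GSI response of the adaptor NCK1 differed by 0.28 (edgeR adjusted p = 0.0424), in a contrast whose count of called genes ran from 36 to 1291 over the refits. The list genes named here were not followed in the refits.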

How the results depend on the processing

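Of the 25 called values of the 6 genes, none changed direction in 375 refits and 7 refits lost the call, all of them for IRS1 with CB-103 in KO cells or for IGF2R between CB-103 and GSI in KO cells. The 41 values that were not called kept their side and sign in 603 of 687 refits, passed the threshold in 33 and changed sign in 53, with 2 refits doing both (IGF1R between CB-103 and GSI in NT cells, with either transcript sum). The 3 pooled comparisons of the INSR exon 11 share kept their sign and did not pass the threshold in the refits run, and the others were not refitted. DESeq2 size factors moved the median of all genes by -0.0325 to 0.0228. The cause of the changes below was not tested. Transcript sums give short transcripts another weight than the gene table does. That is not their only difference: for IRS2, which has 1 transcript, the gene table ran from 0.832 to 1.16 times the transcript sum.

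With transcript sums the members called for GSI against DMSO in NT cells were 4 in place of 2, and the GSI interaction called 1 member and 1026 genes, against 0 and 484 in the gene table. Signs changed for IGF1R between CB-103 and GSI in KO (-0.11) and NT cells (-0.21) and in KO against NT under CB-103 (0.0135). They changed for IRS1 between the inhibitors in NT cells (0.13), for IRS2 between the inhibitors (0.12), with CB-103 (-0.0086) and with GSI (-0.13) in KO cells and in the GSI interaction (-0.0179), and for INSR with GSI in NT cells (-0.0041). In the CB-103 interaction they changed for INSR (0.0159), IGF2R (0.0045) and GRB10 (-0.0092). With protein-coding sums the GSI interaction called 2 members, and signs changed for IGF1R between the inhibitors in KO (-0.10) and NT cells (-0.20) and in the GSI interaction (-0.0352), for IRS1 between the inhibitors in NT cells (0.16), and for IRS2 between the inhibitors (0.14) and with GSI (-0.14) in KO cells and in the GSI interaction (-0.0690).

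With replicates 2 and 3 only, the GSI interaction called 42 genes, and signs changed for IRS2 with GSI (-0.0644) and between the inhibitors (0.10) in KO cells, for IRS1 in KO against NT under CB-103 (0.0059) and between the inhibitors in KO (0.11) and NT cells (0.0901), and in the CB-103 interaction for INSR (0.0097) and IGF2R (0.0466). IRS1 in KO against NT under GSI changed sign with DESeq2 size factors (0.0081) and the Wald test of DESeq2 (0.0079), which called 1071 genes in the GSI interaction. Without a count filter INSR with GSI in NT cells was -0.0038.

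Over all groups, 31 of 45 pairs of same-numbered libraries had r over 0.1 (-0.0713 to 0.352), and 32 of 45 correlated best with their own number. With the number as a replicate block the GSI interaction called 1291 genes and 2 members, IGF2R (-0.31, edgeR adjusted p = 0.0375) and GRB10 (0.27, adjusted p = 0.05), and IGF2R was called with GSI in NT cells (0.18, adjusted p = 0.0281). The block changed no other call of the 6 genes.

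Leaving out each library in turn, the GSI interaction called 36 (without NT GSI replicate 3) to 856 genes (without NT GSI replicate 2) and 0 to 1 members. Values that changed sign ranged as follows: INSR with GSI in NT cells from -0.0285 to 0.0447, IRS2 in KO cells with CB-103 from -0.0796 to 0.0787, with GSI from -0.0232 to 0.184 and between the inhibitors from -0.173 to 0.0346. IRS1 in KO against NT ranged from -0.0103 to 0.314 under DMSO, from -0.275 to 0.0522 under CB-103 and from -0.104 to 0.137 under GSI, between the inhibitors from -0.311 to 0.0405 in KO and from -0.156 to 0.0354 in NT cells, and in the GSI interaction from -0.318 to 0.0201. IGF1R in KO against NT under CB-103 ranged from -0.0925 to 0.0301, and GRB10 in the CB-103 interaction from -0.0328 to 0.0559. None of these was called in the gene table with all libraries. Calls gained by leaving out 1 library were IGF1R between CB-103 and GSI in KO cells (0.26 without KO CB-103 replicate 3, 0.27 without KO GSI replicate 1; also 0.21 without a count filter), IGF2R with CB-103 in NT cells (0.19 without NT CB-103 replicate 3) and with GSI in KO cells (-0.20 without KO GSI replicate 1), and in the GSI interaction GRB10 (0.33 without NT GSI replicate 2) and IGF2R (-0.38 without KO GSI replicate 1). IGF1R was called lower in KO cells under DMSO in a fit to the compared groups only (-0.20, edgeR adjusted p = 0.0368) and with replicates 2 and 3 only (-0.28, adjusted p = 0.0381). Counting error limits IRS2 (83.7 reads in KO GSI libraries) and the short transcripts most.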
